A study of Mus musculus and Homo sapiens with 20 samples.

Results

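Gene deserts are long stretches of the genome without a protein-coding gene. Here they were the gaps of at least 500 kb between neighbouring protein-coding gene spans on mouse chromosomes 1 to 19 (GENCODE M21 annotation of mm10), with overlapping genes merged, the first 3.1 Mb of each chromosome skipped and 10 kb trimmed from each end. Of 18014 autosomal gaps between merged spans, 601 met this rule. They were 500.1 to 4668 kb long (median 881 kb), 248 of them were at least 1 Mb, and each chromosome held 11 to 49. The trimmed deserts held 686 Mb of the 2396 Mb of known autosomal sequence (28.6%). A desert is named below by the genes at its edges, in chromosome order.

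Peak lists were available from CUT&Tag, in which an antibody directs the Tn5 transposase to cut chromatin beside a histone mark, for H2AK119ub and H3K27me3. The libraries came from mouse embryonic stem (mES) cells and from haematopoietic stem and progenitor cells (HSPCs, the Lin-c-Kit+ or LK fraction of bone marrow), each wild type (WT) or Tet2 knockout (KO). Each of the 8 groups held 2 libraries, so 16 lists entered the comparisons, which ask how loss of TET2 alters the 2 Polycomb marks. The mES cells were kept with LIF and inhibitors of GSK3 and MEK. The WT and Tet2-/- mES cells were lines given to the study, so genotype and line cannot be told apart. The HSPCs were sorted on magnetic beads from mice of 6 to 8 weeks (C57BL/6 or germline Tet2-/-, of both sexes). The labels give no sex for a library, so genotype and sex cannot be told apart in HSPCs. The labels also mention a culture of such cells with cytokines and do not say whether the libraries came from cultured cells. The labels do not say that the libraries of a group came from separate cultures or animals, so p-values measure only the spread between these libraries, which may be technical.

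H2AK119ub is the mark that Polycomb repressive complex 1 places on histone H2A, and H3K27me3 is the mark that Polycomb repressive complex 2 places on histone H3. Each complex can recognise the mark of the other, and both gather at CpG-rich sequence near silent developmental genes. Gene deserts are on average poor in G and C and rich in repeats. Some are almost without known function, whereas others, often beside genes for developmental transcription factors, hold distant enhancers of those genes.

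The lists held 85121 to 167378 peaks each, with no height or significance, so what follows rests on positions and widths. The HSPC KO lists also hold many peaks on the X chromosome, which is no part of the deserts. The shortest H2AK119ub list was that of HSPC WT replicate 2 (112734 peaks). The main tests and genotype counts that rest on it are given with and without it. Counts of deserts where the genotypes differed in opposite directions between cell types include it. Descriptions of HSPC H2AK119ub include it, and without it the mean desert coverage of that group of libraries goes from 0.430% to 0.488%. An H3K27me3 peak lay within 1 kb of the start of the pluripotency genes Pou5f1, Nanog and Lin28a in 0 of 4 mES and 4 of 4 HSPC libraries. Zfp42 had one in 1 mES and 0 HSPC libraries and Dppa5a in 0 of both. Of the blood genes, Ptprc had none in either cell type, Spi1 and Cd34 had one in all 4 libraries of both, and Kit in 3 mES and 4 HSPC libraries, so these blood genes do not separate the cell types. Peaks covered 0 to 2.36% of the Tet2 span, which does not check the deletion.

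The sequences that follow are examples of marked and unmarked desert. The 4 lines that come first show, for each cell type and mark, the 200 bases with the most CpG in the longest desert stretch that was covered in all 4 libraries. The fifth shows the centre of the longest stretch with no peak in any of the 16 libraries, which was not chosen for its CpG content, so the contrast in CpG between these lines follows in part from how they were chosen. All are read 5′ to 3′ on the plus strand of RefSeq's GRCm38 sequence, with each CpG in capitals.
mES H2AK119ub, Gm6569-Adgrb1: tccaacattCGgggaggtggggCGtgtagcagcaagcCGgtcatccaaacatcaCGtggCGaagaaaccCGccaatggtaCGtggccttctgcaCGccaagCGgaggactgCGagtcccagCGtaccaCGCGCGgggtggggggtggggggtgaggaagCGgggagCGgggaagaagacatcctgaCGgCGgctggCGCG
mES H3K27me3, Cdh11-Cdh5: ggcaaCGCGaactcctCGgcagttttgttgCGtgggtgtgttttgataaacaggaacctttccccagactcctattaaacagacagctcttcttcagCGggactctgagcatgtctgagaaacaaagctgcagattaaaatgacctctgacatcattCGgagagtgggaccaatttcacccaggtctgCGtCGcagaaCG
HSPC H2AK119ub, Sdk2-Rpl38: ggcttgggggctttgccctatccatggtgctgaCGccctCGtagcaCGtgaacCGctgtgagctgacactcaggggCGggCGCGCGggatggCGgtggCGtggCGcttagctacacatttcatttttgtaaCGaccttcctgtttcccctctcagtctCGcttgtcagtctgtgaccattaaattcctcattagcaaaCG
HSPC H3K27me3, Mef2c-Tmem161b: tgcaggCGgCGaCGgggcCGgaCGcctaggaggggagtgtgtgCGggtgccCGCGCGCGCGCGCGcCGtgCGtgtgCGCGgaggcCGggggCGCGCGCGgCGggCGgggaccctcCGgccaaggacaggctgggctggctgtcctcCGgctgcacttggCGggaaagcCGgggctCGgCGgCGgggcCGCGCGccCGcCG
No peak, Snx16-Ralyl: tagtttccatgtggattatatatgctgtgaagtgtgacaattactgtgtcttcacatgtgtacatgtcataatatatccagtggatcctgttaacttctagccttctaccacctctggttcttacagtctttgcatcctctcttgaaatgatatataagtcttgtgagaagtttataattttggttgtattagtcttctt

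The mES H2AK119ub window lay at chr15:74487616-74487815 and held 20 CpGs. It is part of a stretch of 17.7 kb (chr15:74482055-74499738) in the desert between Gm6569 and Adgrb1, the gene for an adhesion G protein-coupled receptor of the brain, and the stretch overlaps no annotated gene. The mES H3K27me3 window (chr8:104037262-104037461, 9 CpGs) is from a stretch of 31.5 kb (chr8:104035552-104067084) between 2 cadherin genes, Cdh11 and Cdh5, again without an annotated gene. The HSPC H2AK119ub window (chr11:114652678-114652877, 14 CpGs) is from a stretch of only 5.49 kb (chr11:114652634-114658123) at 10.4 kb from the ribosomal protein gene Rpl38. The HSPC H3K27me3 window (chr13:83731095-83731294) held the most of the 5, 36 CpGs. Its stretch of 33.3 kb (chr13:83709737-83743016) runs across the non-coding host gene C130071C03Rik and the microRNA gene Mir9-2, beyond Mef2c. The unmarked window (chr3:12191843-12192042), with no CpG, sits in 1018.7 kb between Snx16 and Ralyl (chr3:11682600-12701285) that no peak touched.

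The second longest stretches covered in all 4 libraries lay elsewhere. For H2AK119ub they were 16.7 kb between Meis2, a homeobox gene, and Tmco5 in mES cells (chr2:116547034-116563730), with no more than 2 CpGs in any window of 200 bases, and 4.51 kb between Ppargc1a and Dhx15 in HSPCs (chr5:52112295-52116801). For H3K27me3 they were 21.2 kb in Rragc-3100002H09Rik in mES cells (chr4:124176465-124197658) and 27.3 kb in Npvf-Nfe2l3 in HSPCs (chr6:51167973-51195248). In all, 8394 and 7782 desert stretches were covered in all 4 mES libraries of H2AK119ub and H3K27me3 (7.35 and 7.26 Mb), and 638 and 3423 in all 4 of HSPCs (0.396 and 4.42 Mb).

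Both marks were scarce in the deserts in every library. H2AK119ub covered 2.70% and 2.50% of desert bases in WT mES cells versus 2.65% and 2.38% in KO mES cells, beside 12.7 to 14.1% of the other autosomal bases in the same libraries. H3K27me3 covered 2.38% and 3.33% in WT versus 3.70% and 2.23% in KO mES cells, beside 7.75 to 12.1% elsewhere. In mES cells, coverage was thus 5.28 ± 0.120-fold (H2AK119ub) and 3.56 ± 0.508-fold (H3K27me3) lower in deserts than outside them (mean ± SD of the fold, n = 4). In HSPCs, H2AK119ub covered 0.477% and 0.256% of desert bases in WT versus 0.467% and 0.520% in KO, beside 8.00 to 9.99% elsewhere. H3K27me3 covered 1.22% in each WT library and 1.79% and 1.55% in KO, beside 8.92 to 9.61% elsewhere. The fold was 22.8 ± 5.64 for H2AK119ub (20.04 ± 0.714 without WT replicate 2, n = 3) and 6.52 ± 1.14 for H3K27me3 (n = 4). Over the 8 libraries of a mark, the log2 ratio of desert to other coverage averaged -3.44 for H2AK119ub and -2.26 for H3K27me3. It was below 0 in 8 of 8 libraries for each mark (two-sided exact sign-flip permutation test, p = 0.00781, the smallest these libraries can give, and 0.0391 after Benjamini-Hochberg adjustment over 20 tests).

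**Figure D1:**
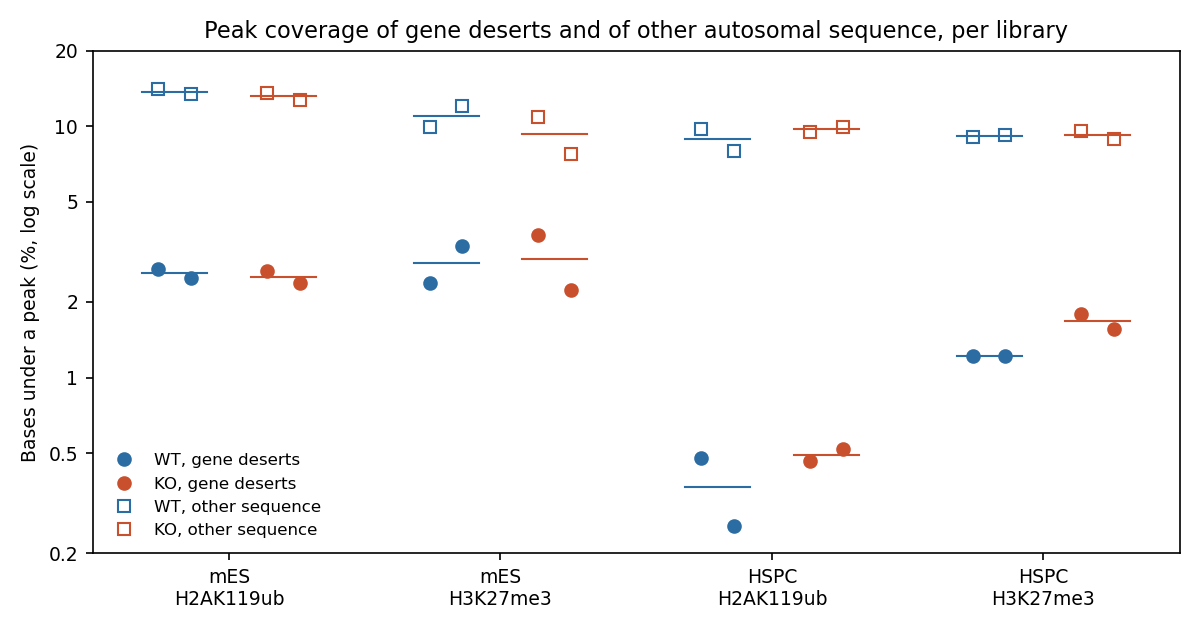
Percent of known bases under a peak (log axis) in each of the 16 libraries, in deserts (filled circles) and in the rest of the autosomes (open squares). Every circle lies below its square, and the HSPC H2AK119ub circles, at 0.256 to 0.520%, lie lowest.

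The desert peaks were also narrower. H2AK119ub peaks averaged 1034 ± 18.9 bp in deserts and 1599 ± 17.3 bp elsewhere in mES cells, and 730 ± 24.5 bp and 1301 ± 38.2 bp in HSPCs (SD over 4 libraries). H3K27me3 peaks averaged 1087 ± 130.5 bp and 1829 ± 202.0 bp in mES cells, and 1379 ± 98.4 bp and 2068 ± 94.6 bp in HSPCs. The width differed by -0.73 (H2AK119ub) and -0.67 (H3K27me3) on the log2 scale, in the same direction in 8 of 8 libraries (exact sign-flip permutation test, p = 0.00781, adjusted p = 0.0391). Many peaks were exactly 501 bp wide, the most common width, and no desert peak was narrower in any library. The median desert peak of HSPC H2AK119ub had this width in all 4 libraries. Its part in the difference of mean widths was not tested. Such peaks made up 44.1% and 46.4% of desert peaks for H2AK119ub and H3K27me3 in mES cells and 61.0% and 40.9% in HSPCs, against 33.0%, 34.5%, 38.9% and 35.6% of peaks elsewhere.

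Within the deserts, coverage fell with distance from the bounding genes. At 10 to 50 kb from the nearer gene, H2AK119ub covered 5.12 to 5.89% of bases in the 4 mES libraries and 0.911 to 1.84% in the 4 HSPC libraries, and H3K27me3 covered 4.61 to 7.56% and 3.79 to 4.94%. At 500 kb or more, the same 4 ranges were 0.313 to 0.416%, 0.0203 to 0.0528%, 0.515 to 1.38% and 0.0722 to 0.136%. The order of the distance classes was the same for the means of each cell type and mark, and the ranges of the nearest and farthest classes did not overlap. In the farthest class mES H3K27me3 kept the most, a mean of 0.862% of bases, and HSPC H2AK119ub the least, 0.0403%.

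**Figure D2:**
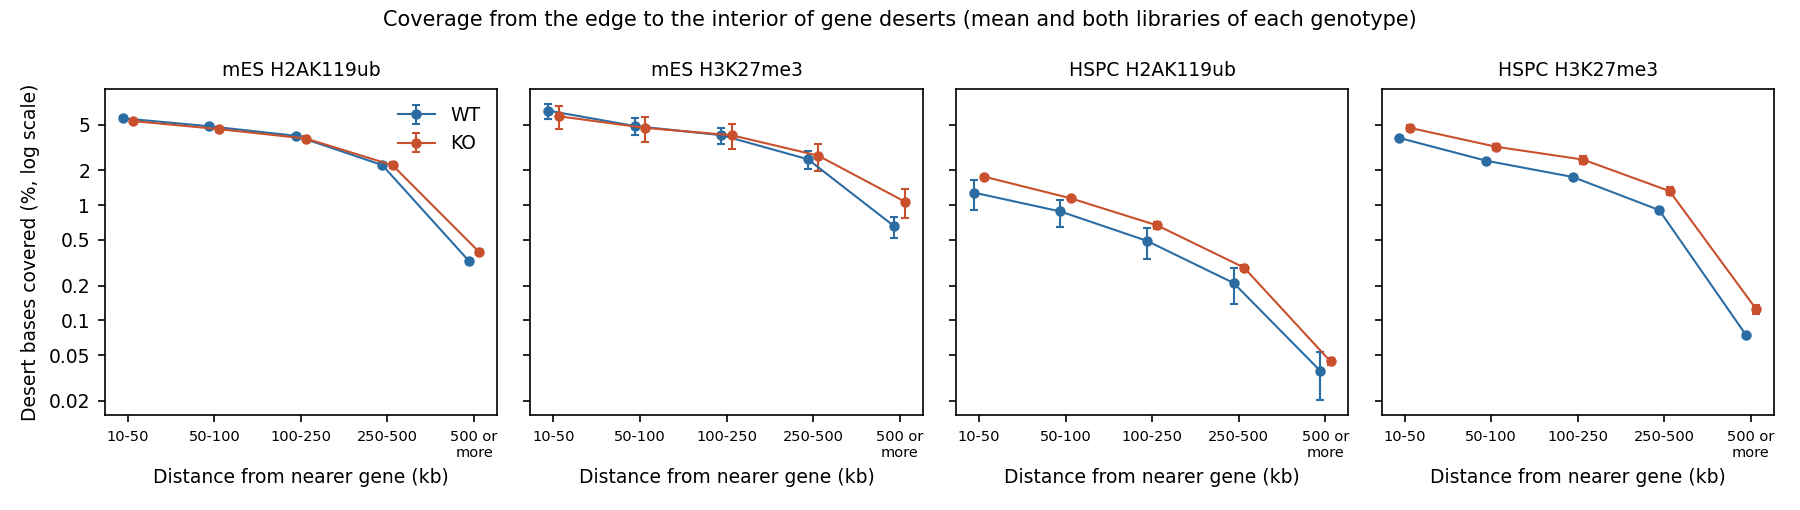
Percent of desert bases covered (log axis) against distance class from the nearer bounding gene (kb), one panel per cell type and mark. Lines join the means of WT and KO and bars run to the 2 libraries of each, with coverage lowest at 500 kb or more in all 4 panels. Only deserts of at least 1 Mb enter that last class.

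Taken over all GC contents, longer gaps were emptier. The 353 deserts of 500 kb to 1 Mb had 5.05 ± 0.309% of bases covered by H2AK119ub in mES cells, the 177 of 1 to 2 Mb had 1.89 ± 0.110% and the 71 of 2 Mb or more had 0.398 ± 0.0363% (SD over 4 libraries). For H3K27me3 the same classes held 4.85 ± 1.12%, 2.48 ± 0.658% and 1.12 ± 0.410% in mES cells. In HSPCs the classes went from 0.897 ± 0.236% to 0.0623 ± 0.0181% for H2AK119ub and from 3.15 ± 0.574% to 0.120 ± 0.0260% for H3K27me3. The decline began before the threshold that defines a desert, since the 1075 gaps of 100 to 200 kb had 12.7% (H2AK119ub) and 10.5% (H3K27me3) covered in mES cells and 5.71% and 9.30% in HSPCs. The 10 gaps just inside the threshold (500.1 to 506.2 kb) had mean coverage of 7.83% and 4.93% in mES cells and 2.75% and 2.17% in HSPCs, for H2AK119ub and H3K27me3. The 10 just outside it (491.5 to 499.9 kb) had 12.2%, 6.44%, 5.87% and 2.14%.

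The 3 longest deserts were nearly bare of both marks in HSPCs. The longest, of 4668 kb between the teneurin gene Tenm3 and Aga, the gene of a lysosomal enzyme (chr8:48843952-53511726), held 27.6 to 35.2 kb of H2AK119ub and 66.9 to 170.3 kb of H3K27me3 in the mES libraries. In HSPCs it held 0 to 0.501 kb and 1.61 to 2.99 kb. The desert between the protocadherin genes Pcdh20 and Pcdh9 (chr14:88471397-93013409) and that between Celf4, which encodes an RNA-binding protein of neurons, and Pik3c3 (chr18:25754158-30272746) held 21.2 to 44.8 kb and 36.9 to 81.3 kb of H3K27me3 in mES cells. Neither had an H3K27me3 peak in any HSPC library. All 3 carried more H3K27me3 than H2AK119ub in mES cells.

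Base composition varied along with the coverage. Deserts were poorer in G and C than the other autosomal bases (39.2% against 43.1%), held fewer CpGs (6.00 against 9.51 per kb) and more repeat-masked sequence (39.0% against 31.3%). The GC content of single deserts ran from 35.9 to 49.5% (median 39.2%). Across the 601 deserts, Spearman's rho between GC content and percent covered was 0.839 to 0.849 in the mES H2AK119ub libraries, 0.649 to 0.706 for mES H3K27me3, 0.642 to 0.737 for HSPC H2AK119ub and 0.660 to 0.677 for HSPC H3K27me3. These describe deserts, which are not replicates, and GC content itself went with length (rho = -0.48). The top quartile of deserts by GC content (151 deserts, above 41.4% GC, median gap 699 kb) was covered over 11.8 ± 0.681% by H2AK119ub and 10.4 ± 2.44% by H3K27me3 in mES cells, and over 1.90 ± 0.489% and 7.02 ± 1.35% in HSPCs. The lowest GC quartile (150 deserts, up to 38.0% GC, median gap 1485 kb) was covered over 0.243%, 0.877%, 0.0308% and 0.0540% in the same order. The top quartile thus held 78.4% of all desert coverage of H2AK119ub and 61.0% of H3K27me3 in mES cells, and 75.4% and 82.5% in HSPCs (means of 4 libraries). In the top quartile, mES deserts of at least 1 Mb were less covered than shorter ones (H2AK119ub 7.87% against 13.6%, H3K27me3 7.49% against 11.8%). In quartiles 2 and 3 they were more covered (0.606% against 0.539% and 1.86% against 1.40%, 1.26% against 1.18% and 3.13% against 2.10%). In the lowest quartile H2AK119ub was lower and H3K27me3 higher. In HSPCs, the longer deserts had less H3K27me3 in every quartile, and H2AK119ub went either way. GC content can also alter how well fragments are amplified and aligned, and its part in the coverage was not tested.

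The covered bases inside deserts were richer in G, C and CpG than the uncovered bases. Over the 16 libraries, covered desert sequence was 47.1 to 49.6% GC with 11.3 to 13.5 CpGs per kb, and 15.9 to 20.4% of it was repeat-masked. Uncovered desert sequence was 38.8 to 39.1% GC with 5.79 to 5.98 CpGs per kb, and 39.0 to 39.7% was masked. A CpG-rich window of 200 bp (at least 50% GC and an observed-to-expected CpG ratio of at least 0.6) lay in only 10.9% and 10.8% of desert peaks of H2AK119ub and H3K27me3 in mES cells and in 8.92% and 11.1% in HSPCs. Outside deserts the shares were 23.6%, 23.4%, 21.7% and 25.8%. A whole window had to fit inside a peak and desert peaks were narrower, and the part of width in this contrast was not tested. Overlapping windows were also merged, into 22112 CpG-rich stretches in deserts. Of these stretches, 12.8% and 13.2% were touched at any base by H2AK119ub and H3K27me3 peaks in mES cells, and 2.56% and 6.06% in HSPCs.

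Coverage differed with the kind of gene at the edge. Of 347 autosomal genes in a list of developmental transcription factors, 73 (21.0%) bounded a desert, as did 108 of 290 genes (37.2%) for neuronal adhesion molecules, synapse proteins and ion channels, beside 5.12% of all protein-coding genes. The 79 deserts with a transcription factor gene at an edge were covered over 5.59 ± 0.365% by H2AK119ub and 5.90 ± 1.37% by H3K27me3 in mES cells, and over 0.784 ± 0.217% and 3.94 ± 0.801% in HSPCs. The 128 deserts with a neuronal gene and no transcription factor were covered over 0.919 ± 0.0589%, 1.72 ± 0.544%, 0.0874 ± 0.0294% and 0.190 ± 0.0585%. The 394 deserts with neither lay between, at 2.85%, 2.97%, 0.543% and 1.64%. With 11.0% of the desert bases, the transcription factor deserts held 29.7 ± 0.440% of the desert H3K27me3 in HSPCs, the largest share in the 4 sets of libraries. The classes also differed in length and GC content (median gap 804, 1347 and 825 kb and mean GC 41.2%, 38.3% and 40.1%), and the part of either in the difference was not tested apart from a split by length. Among deserts of at least 1 Mb the order was the same, for example 1.54%, 0.0971% and 0.681% for HSPC H3K27me3.

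Deserts hold non-coding genes. Inside the 601, 6689 genes were annotated, of which 1789 were lncRNA genes and 298 miRNA genes, and lncRNA genes spanned 9.96% of desert bases. Within lncRNA genes 4.55 ± 0.259% of bases were under H2AK119ub in mES cells, against 2.34 ± 0.135% of the other desert bases, and H3K27me3 covered 4.78 ± 1.13% against 2.70 ± 0.675%. In HSPCs the values were 0.943 ± 0.228% against 0.373 ± 0.106% for H2AK119ub and 2.66 ± 0.451% against 1.31 ± 0.260% for H3K27me3. Of 1668 lncRNA start sites in deserts, 27.7 ± 0.505% and 23.4 ± 3.20% had a peak of H2AK119ub and H3K27me3 within 1 kb in mES cells, and 8.32 ± 2.22% and 12.96 ± 1.13% in HSPCs. Most desert coverage lay outside these genes, which held 15.7 to 23.7% of it over the 16 libraries.

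The marks were concentrated in few deserts. The 60 deserts with most coverage held 58.8 to 60.2% of the desert total in the mES H2AK119ub libraries, 42.6 to 52.6% for mES H3K27me3, 63.3 to 72.1% for HSPC H2AK119ub and 74.5 to 75.7% for HSPC H3K27me3. At the other end, 7 to 17 and 10 to 37 deserts had no covered base in the mES libraries of H2AK119ub and H3K27me3, and 158 to 296 and 223 to 246 in those of HSPCs. No desert lacked a peak in all 16 libraries. Even so, 91.4% of desert bases were under no peak in any library, and 1110 peak-free stretches of 100 kb or more held 28.3% of them.

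The share of the most covered deserts under a mark differed between the groups of libraries. In the desert between Gm26897 and the crystallin gene Cryba4 (chr5:111734575-112246492), H2AK119ub covered 65.4% and 64.1% of bases in WT versus 64.7% and 60.2% in KO mES cells. It was also first for mES H3K27me3, with 48.4% and 59.5% in WT versus 53.5% and 38.5% in KO. Between Sdk2, which encodes a synaptic adhesion molecule, and Rpl38 (chr11:114067047-114668523), H2AK119ub covered 48.9 to 56.5% in the mES libraries and 9.88 to 16.3% in those of HSPCs. Prok2-Rybp (chr6:99726393-100228564) was second for mES H2AK119ub, at 68.6% and 68.0% in WT versus 45.2% and 43.9% in KO, and first for HSPC H2AK119ub, at 19.1% and 11.7% versus 22.4% and 23.6%. Gm6569-Adgrb1 (chr15:73839909-74516194), where the longest mES H2AK119ub stretch lay, was covered over 49.6 to 55.4% by that mark in mES cells. In HSPCs the fullest desert for H3K27me3 lay between Rragc, a gene of the amino acid sensing pathway, and 3100002H09Rik (chr4:123936998-124609930), at 55.8% and 57.2% in WT versus 69.1% and 65.1% in KO. Next came the desert of 905 kb between the Mediator subunit gene Med13l and Tbx3, a T-box transcription factor gene of limb and heart development (chr5:118765439-119670668), at 47.0% and 48.9% in WT versus 62.8% and 59.5% in KO. The desert beside Runx1, the gene of a master regulator of blood formation, which ends at Setd4 (chr16:92826150-93583456), was among the 4 highest for HSPC H2AK119ub, with 15.3% and 12.6% in WT versus 13.7% and 14.0% in KO.

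HSPCs had less of both marks in deserts than mES cells did. The mean log2 difference, HSPC minus mES, was -2.62 for H2AK119ub (6.15-fold lower) and -0.99 for H3K27me3 (1.99-fold lower). Divided by the coverage of the rest of the autosomes in the same library, the differences were -2.09 (4.24-fold) and -0.87 (1.82-fold). Without HSPC WT replicate 2 the H2AK119ub differences were -2.40 and -1.93. In all 4 comparisons the 4 HSPC libraries lay below the 4 mES libraries. The exact permutation test within genotype gave p = 0.0556 for each, the smallest its 36 arrangements allow, and 0.111 after adjustment. Of 599 deserts with any H2AK119ub, 489 (81.6%) were lower in every HSPC library than in every mES library, beside 69% of all gaps of 100 kb or more, and 0 were higher, beside 1.46%. For H3K27me3, 416 of 599 (69.4%) were lower, beside 51.4%, and 32 (5.34%) were higher, beside 12.6%.

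The deserts with most H2AK119ub in mES cells over HSPCs were Matn1-Ptpru, Vrk1-3110018I06Rik and Nphp4-Ajap1. Matn1-Ptpru (chr4:130955476-131768456), beside a receptor tyrosine phosphatase gene, held 376 to 411 kb in the mES libraries and 20.5 to 41.5 kb in those of HSPCs. Vrk1-3110018I06Rik held 335 to 383 kb against 3.79 to 14.3 kb, and Nphp4-Ajap1 held 329 to 383 kb against 5.27 to 10.6 kb. For H3K27me3 the largest differences of that direction were in Cdh11-Cdh5, with 246 to 365 kb in the mES libraries against 13.3 to 26.6 kb in HSPCs. Rps24-Zmiz1, with 216 to 395 kb against 92.1 to 111 kb, and Fam19a5-Zdhhc25, with 174 to 284 kb against 7.86 to 29.9 kb, came next. Cdh11 encodes a cadherin of mesenchyme and Cdh5 that of the endothelium.

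The opposite case, more H3K27me3 in HSPCs, was found on both sides of the HoxD cluster. The 9 Hoxd genes, which encode homeodomain factors that pattern the body axis and limbs, lie at chr2:74668310-74765142. The desert on the left, Atp5g3-Lnpk (chr2:73911327-74520290), ends 148 kb before them, and the desert on the right, Mtx2-Hnrnpa3 (chr2:74878432-75659260), begins 113 kb after them. On the left, H3K27me3 covered 203 and 204 kb in WT versus 258 and 228 kb in KO HSPCs, against 18.1 to 34.2 kb in the 4 mES libraries. On the right it covered 306 and 299 kb in WT versus 302 and 273 kb in KO HSPCs, against 41.1 to 101 kb in mES cells. H2AK119ub did not go with it: on the left it covered 4.75 to 14.7 kb in HSPCs and 20.9 to 28.2 kb in mES cells. Med13l-Tbx3 had the largest difference of this direction, with 416 to 556 kb of H3K27me3 in HSPCs and 137 to 263 kb in mES cells.

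**Figure D3:**
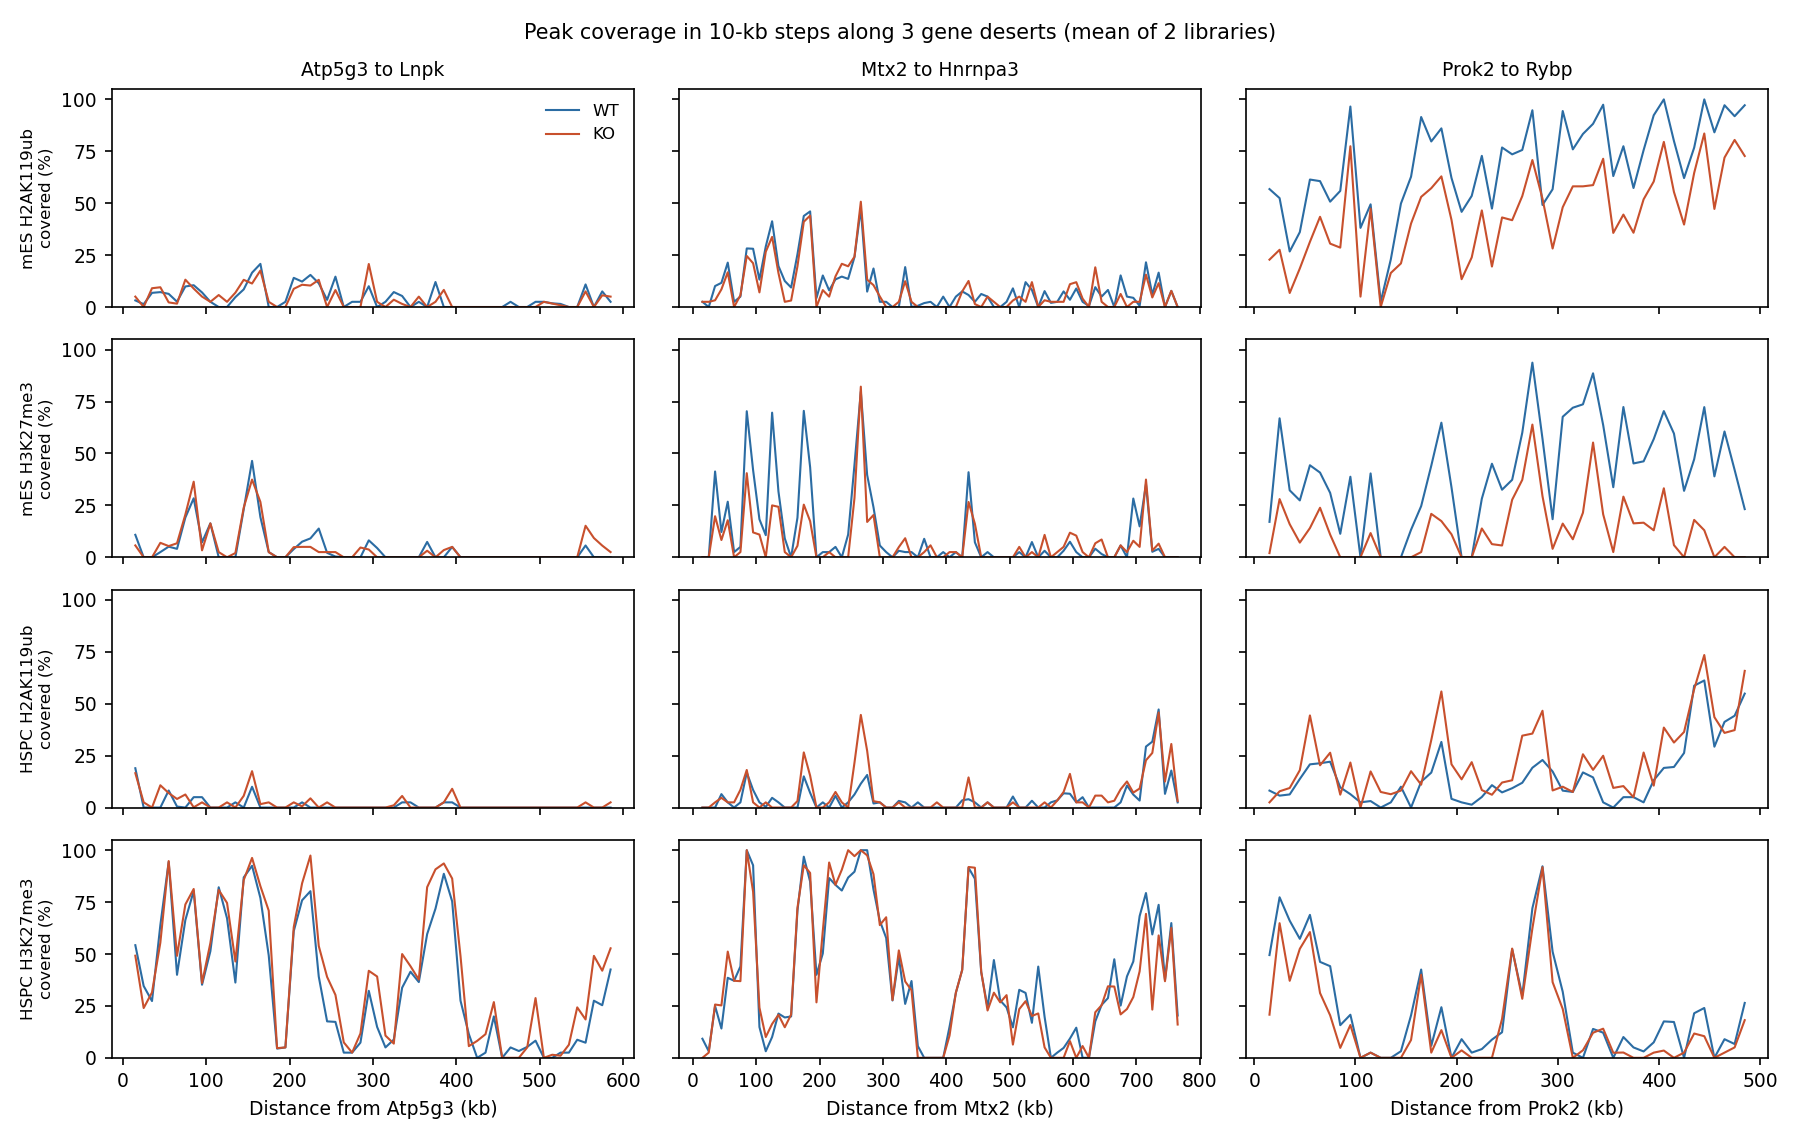
Percent of bases covered in steps of 10 kb along the deserts Atp5g3-Lnpk, Mtx2-Hnrnpa3 and Prok2-Rybp, against distance from the desert's start (kb), with WT in blue and KO in red (mean of 2 libraries). The HSPC H3K27me3 row is high in both deserts beside HoxD, and the mES rows of Prok2-Rybp are lower in KO.

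The share of H3K27me3 that lay under H2AK119ub was lower in deserts than elsewhere. In WT mES cells 41.9 to 51.3% of desert H3K27me3 bases were also under H2AK119ub (4 pairs of libraries), against 64.1 to 71.4% outside. In WT HSPCs the shares were 5.73 to 11.0% in deserts and 32.1 to 41.1% outside (10.5 to 11.0% and 40.2 to 41.1% without H2AK119ub replicate 2). The reverse share, of H2AK119ub under H3K27me3, overlapped between deserts and other sequence in WT mES cells, at 45.2 to 55.9% and 50.6 to 57.6%. In WT HSPCs it was 26.7 to 28.6% in deserts and 36.4 to 38.8% outside. H2AK119ub also covered less of the deserts, and its part in these shares was not tested. The relative coverage of H3K27me3 was above that of H2AK119ub by 0.58 on the log2 scale in mES cells (1.49-fold) and by 1.80 in HSPCs (3.47-fold, and 1.64 on the log2 scale without H2AK119ub WT replicate 2), with no overlap of libraries (exact permutation test, p = 0.0556 for each, the smallest possible, adjusted p = 0.111). The deserts ranked alike all the same: Spearman's rho between the 2 marks over 601 deserts was 0.821 in mES cells and 0.736 in HSPCs, values that share the deserts' GC content. The desert Gadd45g-Diras2 (chr13:51848469-52504379), beside a gene of the growth arrest response, showed how far the marks can part in HSPCs, with 83.4 to 108 kb of H2AK119ub and 0 to 4.83 kb of H3K27me3.

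Libraries of one group also repeated each other less well in deserts. The Jaccard index of covered bases between the 2 libraries of a group was 0.163 to 0.540 in deserts and 0.424 to 0.688 elsewhere, lowest in both places for WT HSPC H2AK119ub. Comparisons between genotypes therefore rest on fewer repeated positions in deserts than elsewhere.

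In HSPCs, desert H3K27me3 was higher in KO than in WT in both measures, in libraries whose donors' sex is not given. Coverage differed by 0.45 on the log2 scale (1.37-fold, 1.79% and 1.55% against 1.22% in each WT library) and coverage relative to the other autosomal bases by 0.44 (1.35-fold). The libraries did not overlap, but 2 against 2 libraries allow no exact permutation p below 0.333, which is what both gave (adjusted p = 0.476). By desert, 210 of 423 (49.6%) were higher in both KO libraries than in both WT libraries, beside 35.6% of all gaps of 100 kb or more, and 45 (10.6%) were lower, beside 21.7%. By chromosome, both KO libraries were above both WT libraries on 14 of 19 and below on 0, and the mean was higher in KO on 17, with chromosomes 6 and 17 the exceptions (log2 differences of -0.09 and -0.17). KO was above WT in every distance class, for example 4.94% and 4.42% against 3.79% and 3.85% at 10 to 50 kb and 0.136% and 0.114% against 0.0722% and 0.0780% at 500 kb or more.

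Gained bins of H3K27me3 outnumbered lost ones. Of the 1-kb bins in deserts that were at least 50% covered in any of the 4 libraries, 1660 (9.52%) were marked in both KO and neither WT library, beside 4.58% of such bins over all autosomes. Only 337 (1.93%) had the reverse pattern, beside 3.2%. Of the 1660, 49.0% lay within 5 kb of a bin marked in all 4 libraries, against 59.3% of the bins gained elsewhere on the autosomes. The top GC quartile held 82.3 to 82.7% of desert coverage in each of the 4 libraries. The largest gains were in Matn1-Ptpru, from 201 and 221 kb in WT to 393 and 325 kb in KO, and in Mki67-Mgmt, from 295 and 294 kb to 446 and 399 kb. Mki67-Mgmt (chr7:135716362-136894613) lies between the gene of a proliferation marker and that of a DNA repair enzyme. Med13l-Tbx3 went from 416 and 433 kb to 556 and 527 kb. The 2 largest losses were in Npvf-Nfe2l3 on chromosome 6, from 223 and 235 kb to 194 and 178 kb, and in Prok2-Rybp, from 102 and 115 kb to 80.2 and 76.5 kb. The right flank of HoxD, with 306 and 299 kb against 302 and 273 kb, overlapped between genotypes.

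**Figure D4:**
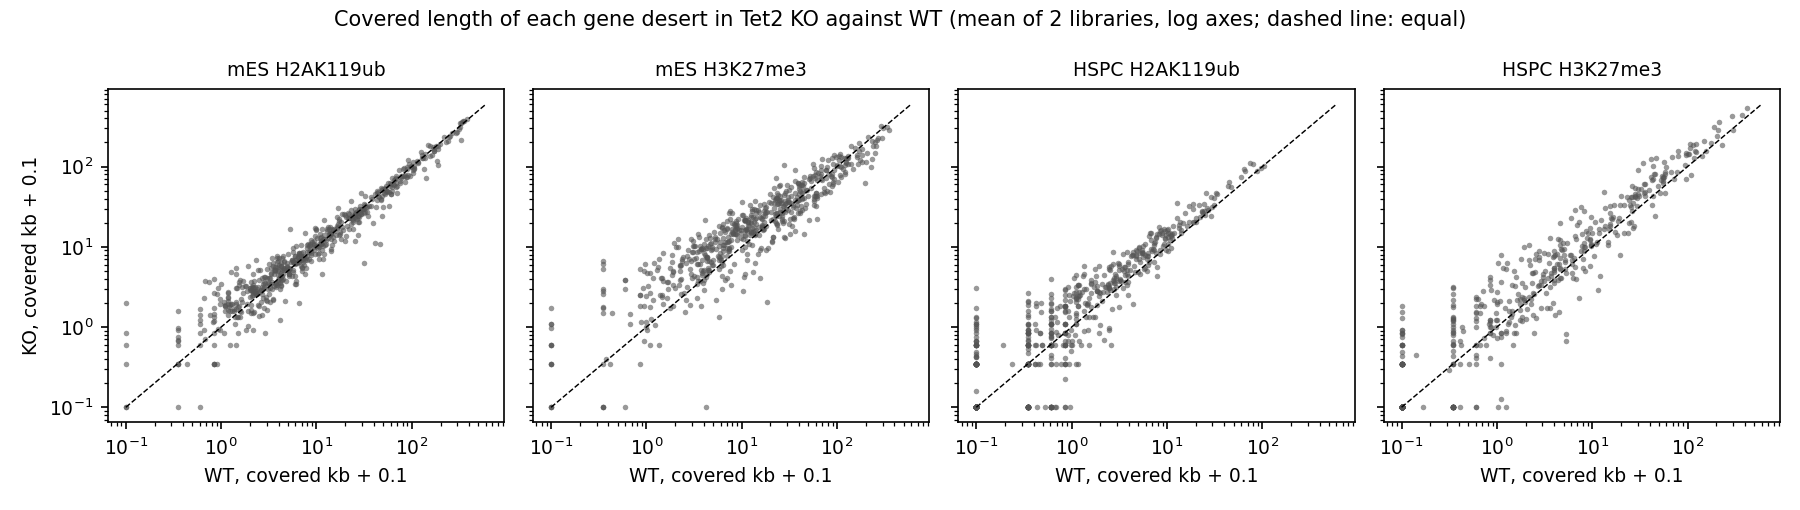
Covered kb of each desert (plus 0.1 kb, log axes) in KO against WT, means of 2 libraries, for each cell type and mark, with the dashed line marking equal values. In the HSPC H3K27me3 panel more deserts lie above the line than below it, where 210 of 423 had both KO libraries above both WT libraries.

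For HSPC H2AK119ub, the difference between genotypes rested on 1 library. Desert coverage was 0.477% and 0.256% in WT versus 0.467% and 0.520% in KO, which overlap, with a log2 difference of 0.50 (exact permutation test, p = 0.667). Without WT replicate 2 the difference was 0.05. Relative coverage differed by 0.36 without overlap (exact permutation p = 0.333, the smallest possible), with overlap when 50 kb was trimmed from each end (exact permutation p = 0.667), and by 0.05 without that library. Of 513 deserts 147 (28.7%) were higher in both KO libraries, beside 29.8% of the wider set of gaps, and 16 (3.12%) were lower, beside 2.83%, so the deserts were close to the background in both directions. Without WT replicate 2 the counts were 154 higher and 156 lower. Gained bins were 420 (5.42%, beside 4.76%) and lost bins 128 (1.65%, beside 2.7%). Without WT replicate 2 they were 518 and 1699. A lost bin then needed a mark in only 1 WT library, whereas a gained bin still needed both KO libraries. These 2 counts therefore do not show a direction. The largest gain was in Prok2-Rybp, from 92.0 and 56.6 kb to 108 and 114 kb, followed by Gm26897-Cryba4, from 77.5 and 50.8 kb to 88.7 and 100 kb. The largest losses were small, from 31.3 and 26.5 kb to 26.2 and 21.9 kb in Stt3b-Gadl1 and from 4.00 and 1.00 kb to 0.501 kb in both KO libraries in Akr1e1-Klf6.

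In mES cells, the total H2AK119ub coverage of deserts was not separated by genotype. The log2 difference was -0.05 in coverage and 0.01 in relative coverage, with overlapping libraries (exact permutation test, p = 0.667 for each). Of 599 deserts 152 (25.4%) were higher in both KO libraries, beside 19.1% of all gaps of 100 kb or more, and 99 (16.5%) were lower, beside 26.7%. Gained bins numbered 1234 (3.91%, beside 2.92%) and lost bins 1443 (4.57%, beside 4.06%). Of the distance classes, only that of 500 kb or more from a gene had both KO libraries above both WT libraries, at 0.416% and 0.367% against 0.344% and 0.313%. Fam19a5-Zdhhc25, on chromosome 15, gained most, from 156 and 142 kb to 205 and 165 kb, and Eef2kmt-Rbfox1, beside the gene of a neuronal splicing factor, followed, from 91.6 and 89.9 kb to 129 and 109 kb.

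By chromosome, desert H2AK119ub of mES cells had both KO libraries below both WT libraries on 2 of 19, chromosomes 6 and 13, and above on 1, and its mean was higher in KO on 7. These 2 chromosomes held 14 and 12 of the 99 deserts lower in KO (14.1% and 12.1%), beside 5.66% and 6.66% of all deserts. They also held 12.8% and 12.6% of the 1443 lost desert bins beside 5.08% and 8.14% of the marked ones. On chromosome 6, desert H2AK119ub went from 3.12% and 2.93% of bases in WT to 2.11% and 1.87% in KO, a log2 difference of -0.60, and on chromosome 13 from 4.21% and 3.91% to 3.55% and 3.20% (-0.27). H3K27me3 differed by -0.54 and -0.34 on these chromosomes, where the libraries overlapped, and no chromosome had both KO libraries below or above both WT libraries for that mark. On chromosome 6 it went from 2.09% and 2.93% to 2.26% and 1.29%. The largest loss of either mark was in Prok2-Rybp, beside Rybp, which encodes a subunit of variant PRC1, the complex that places H2AK119ub. H2AK119ub went from 331 and 328 kb to 218 and 212 kb, and H3K27me3 from 173 and 221 kb to 80.0 and 45.8 kb. Kif2a-Ndufaf2 on chromosome 13 (chr13:107022127-108002714) was next for H2AK119ub, from 188 and 186 kb to 110 and 98.5 kb, and Gadd45g-Diras2, also on chromosome 13, was next for H3K27me3, from 216 and 235 kb to 126 and 73.3 kb. In HSPCs, Gadd45g-Diras2 held H2AK119ub at 108 and 83.4 kb in WT versus 88.5 and 103 kb in KO, which overlap.

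Desert H3K27me3 of KO mES cells was spread differently. Total coverage overlapped between genotypes (log2 difference of 0.03, exact permutation p = 1), and the KO libraries, with 125347 and 102382 peaks, were the longest and the shortest of the 4 lists. Relative coverage was higher in KO by 0.28 without overlap (exact permutation p = 0.333, the smallest possible). With peaks of at least 1 kb it was higher by 0.13 and the libraries overlapped (exact permutation p = 0.667). Of 598 deserts 200 (33.4%) were higher in both KO libraries, beside 20.3%, and 65 (10.9%) were lower, beside 24.7%. In 1-kb bins, 2051 were gained (5.47%, beside 2.9%) and 2415 lost (6.45%, beside 7.53%). Deserts thus held 23.8% of all autosomal bins gained and 10.8% of those lost, beside 37470 of the 296802 bins marked in any library. Only 25.9% of the gained desert bins lay within 5 kb of a bin marked in all 4 libraries, against 47.9% of the lost ones. Elsewhere on the autosomes these shares were 46.0% and 59.3%, so the gained bins had the lower share there too. The lowest GC quartile of deserts took 8.87 ± 0.803% of desert H3K27me3 in WT and 13.5 ± 0.682% in KO (n = 2 each), and the top GC quartile 67.4% and 64.9% in WT versus 55.2% and 56.5% in KO, without overlap in either. The shares of mES H2AK119ub moved the same way by fewer percentage points, also without overlap. Its lowest quartile took 3.13 to 3.27% in WT versus 3.92 to 4.00% in KO, and its top quartile 78.4 to 79.3% versus 77.9%.

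The largest H3K27me3 gains in KO mES cells were in long deserts of low coverage. Frg1-Triml1 (chr8:41417075-43129806) went from 22.1 and 33.1 kb of H3K27me3 to 127 and 79.8 kb. Tenm2-Mat2b (chr11:37235965-40679313), beside a second teneurin gene and 3443 kb long, went from 28.2 and 43.5 kb to 113 and 68.7 kb. H2AK119ub in the same deserts moved by much less, from 11.9 and 11.0 kb to 16.2 and 17.1 kb and from 11.6 and 10.5 kb to 13.3 and 13.2 kb. In HSPCs Tenm2-Mat2b had no H3K27me3 peak in any library.

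The effect of genotype was not shown to differ between the cell types. The log2 difference of the KO effects on relative coverage, HSPC minus mES, was 0.34 for H2AK119ub (exact permutation test, p = 0.444, adjusted p = 0.593) and 0.04 without HSPC WT replicate 2. For H3K27me3 it was 0.15 (exact permutation test, p = 0.778, adjusted p = 0.819). Among deserts with H2AK119ub in both cell types, both KO libraries lay below both WT libraries in mES cells and above them in HSPCs in 33 of 513 (6.43%), beside 8.95% of gaps of 100 kb or more, and the reverse held in 5 (0.975%), beside 0.639%. These H2AK119ub counts include HSPC WT replicate 2, the lowest library of its group. For H3K27me3 the counts were 28 of 422 (6.64%), beside 7.58%, and 10 (2.37%), beside 1.5%.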

How the data were processed

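Peak positions from 16 mouse CUT&Tag libraries were used; the K562 lists of the series were not used here. The authors deposited 1 BED list per library with chromosome, start, end and a name and with no score, height or p-value, so the only deposited values are positions. Per the labels, Trimmomatic 0.39, Bowtie2 2.4.1 and HOMER 4.9 were used with mm10. The study's methods name MACS2 for broad peaks, removal of duplicates and a Drosophila spike-in, which cannot scale a list of positions. Which caller made these lists is not given in the sources used here. Lists fall in width from first to last peak, so a shorter list keeps wider peaks. Read depth is unknown.

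Protein-coding spans came from GENCODE M21, and sequence from RefSeq GRCm38 (the same build as mm10). BED starts were read as 0-based and coordinates are printed 1-based. Coverage is the percent of known bases under at least 1 peak, and relative coverage is the log2 ratio of desert to other autosomal coverage in a library. A peak was counted in a desert by its midpoint. Genotypes (2 against 2 libraries, 6 assignments), cell types and marks (36 arrangements, permuted within genotype) and desert against other sequence (sign flips, 256 arrangements) were compared by two-sided exact permutation tests with Benjamini-Hochberg adjustment over 20 tests. Single deserts were called where all libraries of one group lay above all of the other, and the background is the same call over the 2436 autosomal gaps of 100 kb or more, deserts included. Python 3.11.15, numpy 2.4.6, scipy 1.17.1 and bedtools 2.31.1 were used. Covered desert bases were checked against bedtools in 16 of 16 libraries, and 100% of 200 desert peaks removed from simulated mES H2AK119ub KO lists were recovered as lost bins beside 10% random dropout.

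Named deserts were the 3 longest, the 4 with the highest coverage per mark and cell type, the 3 with the largest cell type difference and the 2 with the largest genotype difference in covered kb in each direction among those without overlap, and those with the longest stretches covered in all 4 libraries. Deserts next to HoxD and those of opposite direction were described after their values were seen. The members and gene lists were chosen with earlier results of these data known. The value of 1 cell type marker is not reported here. Alternatives were peaks of at least 1 kb, equal-length lists, a trim of 50 kb, gaps of at least 1 Mb, gaps between genes of any biotype, added chromosome ends, leaving out chromosomes 6 and 13, a bin cut-off of 25%, a CpG ratio of 0.75, a replicate block and leaving out each library.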

Additional observations from a re-analysis of the deposited data

Results flagged for a closer look

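In 5 of the 27 named deserts, both KO libraries lay on one side of WT in mES cells and on the opposite side in HSPCs for 1 mark. All 5 were lower in KO mES cells and higher in KO HSPCs, among 54 pairs of desert and mark searched. That direction held in 6.43% of the deserts tested for H2AK119ub and 6.64% for H3K27me3, beside 8.95% and 7.58% of gaps of 100 kb or more. The difference of the KO effects gave an exact permutation p of 0.0556 in each of the 5, the smallest its 36 arrangements allow, which follows from picking deserts with opposite directions. In Prok2-Rybp, H2AK119ub was 115 kb lower in KO than in WT mES cells and 36.7 kb higher in KO HSPCs, a difference of 151 kb. In Mki67-Mgmt, H3K27me3 was 103 kb lower in KO mES cells and 128 kb higher in KO HSPCs, a difference of 231 kb. For H2AK119ub, the same opposite directions gave differences of 46.0 kb in Sdk2-Rpl38, 43.5 kb in Rragc-3100002H09Rik and 42.3 kb in Med13l-Tbx3. The H2AK119ub values rest in part on HSPC WT replicate 2, the lowest library of its group.

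Gaps of at least 500 kb on the X chromosome, which the deserts leave out, differed between genotypes in HSPCs. Over 56 such gaps (53.5 Mb), H3K27me3 covered 4.46% and 3.96% of bases in the 2 KO libraries against 0.0798% and 0.0830% in the WT libraries. H2AK119ub covered 0.263% and 0.314% against 0.0399% and 0.0162%. The rest of the X chromosome differed too, so the difference was not particular to the gaps. There H3K27me3 covered 19.9% and 17.8% in KO against 0.915% and 0.928% in WT. H2AK119ub covered 2.15% and 2.29% against 0.472% and 0.291%. The mice were of both sexes, and the labels give no sex for a library.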

How the results depend on the processing

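The desert and other sequence, peak width, cell type and mark comparisons kept their direction under every alternative run, as did the higher HSPC H3K27me3 of KO, for which no p below 0.333 was possible. With 1 library left out, desert against other sequence and peak width had p = 0.0156 in the exact permutation test, the smallest 7 libraries can give, and 0.0781 after adjustment over 20 tests, past the threshold only before adjustment. The near-zero mES differences changed sign: the log2 KO difference of H2AK119ub coverage was 0.022 for gaps of at least 1 Mb, 0.064 for gaps between genes of any biotype (124 deserts), 0.0032 without chromosomes 6 and 13, and -0.13 to 0.030 with 1 library left out. Its relative coverage was -0.010 with peaks of at least 1 kb and -0.017 to 0.042 with 1 library left out. mES H3K27me3 coverage was -0.18 with peaks of at least 1 kb and -0.34 to 0.40 with 1 library left out. The causes were not tested. With peaks of at least 1 kb, mES H3K27me3 relative coverage was higher in KO by 0.13 with overlapping libraries (0.16 to 0.40 with 1 library left out), and the cell type difference of H3K27me3 coverage was -0.74 (exact permutation p = 0.111). HSPC H2AK119ub relative coverage overlapped between genotypes with a trim of 50 kb (0.346) and for gaps of at least 1 Mb (0.348). Adding chromosome ends added no desert.

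Counts depended more on the lists. With peaks of at least 1 kb, lost and gained desert bins were 878 and 636 for mES H2AK119ub and 43 and 152 for HSPC H2AK119ub, 1820 were lost and 941 gained for mES H3K27me3 and 193 lost for HSPC H3K27me3. With equal-length lists they were 953 and 807 for mES H2AK119ub and 75 and 253 for HSPC H2AK119ub, and 2 deserts were higher in HSPCs for H2AK119ub. With a bin cut-off of 25%, 3431 bins were gained for mES H3K27me3, and 223 lost and 690 gained for HSPC H2AK119ub. With a CpG ratio of 0.75, a CpG-rich window lay in 3.85% and 4.03% (mES) and 3.96% and 4.72% (HSPC) of desert peaks of H2AK119ub and H3K27me3.

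With 1 library left out, fewer libraries had to agree and the counts of deserts higher and lower in KO rose: 193 to 298 and 124 to 236 for mES H2AK119ub, 201 to 445 and 66 to 215 for mES H3K27me3, 154 to 329 and 23 to 156 for HSPC H2AK119ub, and 237 to 271 and 59 to 77 for HSPC H3K27me3. Deserts higher in HSPCs for H2AK119ub were 0 to 4. Without HSPC WT H2AK119ub replicate 2, lost bins, which then needed a mark in only 1 WT library, were 1699. The equal-length and left-out counts of deserts, and those bins, were added after seeing the data.

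Replicate numbers only name the libraries, and deviations of same-numbered libraries correlated at -0.17 to 0.03 over deserts. The replicate block left each log2 difference as it was (0.45 for HSPC H3K27me3 coverage, p = 0.5 in the exact permutation test, the smallest it allows). For mES H3K27me3, 204 deserts were higher and 68 lower in both same-numbered KO and WT pairs, and 352 and 131 with crossed numbers in the replicate block. Read depth is unknown, so coverage differences near the spread of the lists cannot be resolved.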
